A study of Homo sapiens with 4 samples.

Results

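The comparison set the K562 library against the library labelled MOLM13, 2 of the 4 ribosome footprint libraries of the series, with 1 library a side. Both were taken by their labels, with earlier results of these data known, and the other 2 libraries, THP-1 and HL60, served only as a background level. K562 is a line started from the blast crisis of a chronic myeloid leukemia that carries the BCR-ABL1 fusion and has erythroid features. MOLM13 is a line from an acute monocytic leukemia with a KMT2A rearrangement and an internal tandem duplication in FLT3. Per the labels' protocols K562 and HL60 were grown in IMDM, MOLM13 in DMEM and THP-1 in RPMI1640 with 2-mercaptoethanol, all in serum, so medium and line cannot be told apart in the comparison. No genetic change or drug treatment was applied, lysis was in the presence of cycloheximide, and unprotected RNA was digested with ARTseq nuclease before ribosomal RNA depletion. Each line is 1 culture that stands for a single disease, and no second culture was analysed here.

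Footprints are the stretches of messenger RNA that a ribosome shields from nuclease, and their density on a gene follows both the amount of its messenger RNA and how heavily that RNA is loaded. Red cell precursors are known for globin chains, which bind heme and carry oxygen, for a spectrin skeleton anchored to glycophorins, and for the transcription factors GATA1 and KLF1 that drive these genes. Monocytic cells are known for lysozyme, Fc receptor chains and integrins. Simple keratins form filaments in epithelia and are also made by some leukemia lines. In bulk samples like these, fewer cells making a gene and less RNA per cell cannot be told apart.

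Levels are given as scaled TPM, the deposited transcript abundances (TPM) summed per gene and divided by a factor that sets the median ratio between the libraries to 1 over the 4661 genes whose TPM reached 10 in both. Differences are given on the log2(scaled TPM + 1) scale, K562 minus the other library, which understates the change of low genes. A gene is called high in 1 library when this difference is at least 2, which is 4-fold, with at least 600 aligned bases in the higher library. Ranges in parentheses are 95% intervals from the footprint number, Poisson for levels and binomial for folds and ratios, and cover counting error only. A gene listed at 0 gets no fold, since a 0 from the authors' transcript estimation can be a failed estimate. Exons are counted on a single transcript of each gene, the one with the most aligned bases over the pair. Coverage of these exons sums all transcripts of the gene.

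Aligned depth was 473 megabases for K562 against 344 for the library labelled MOLM13, which are counted below in footprint equivalents, bases divided by the modal footprint length of 29 nucleotides. Nuclear protein-coding genes held 75.8% and 83.3% of these bases. The deeper library was not the one with more genes: 15308 were above 0 in K562 and 15747 in the other. Of 10469 protein-coding genes measured, meaning a scaled TPM of at least 1 in either library, 11.9% were listed at 0 in K562 and 7.01% in the other. Genes that every cell uses are among them, such as the ribosomal protein genes RPS27A and RPS26 in K562 and RPL26 and the glycolytic gene TPI1 in the other.

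Of the K562 library, 9 of 10 erythroid markers lay at 1 or more, with a sum of 14639, and HBG2, a near-identical copy of HBG1, was listed at 0. Several markers went against the label MOLM13, and its deposited file carries another name, so the wording "the library labelled MOLM13" is used throughout. FLT3, the receptor kinase duplicated in MOLM13, was listed at 0, as it was in K562 and HL60, and lay at 1.80 in THP-1. MEIS1, a cofactor of HOXA9, was listed at 0 as well. HOXA9 and HOXA10, homeobox genes that KMT2A fusions keep active, were at 28.8 and 15.8, and the myeloid receptor CD33 was at 5.34. Of 7 monocyte markers 3 were at 1 or more, with a sum of 30.5 against 42.0 in K562, and CD68, CSF1R, ITGAM and TYROBP were listed at 0. Of 7 T cell markers 4 were at 1 or more, with a sum of 937 against 50.6 in K562, and CD2, LCK and CD3G were at 0. All 5 B cell markers were listed at 0. All 5 epithelial markers were above 1 in both libraries, with sums of 575 in K562 and 408 in the other. Whether the library is what its label says was not tested.

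Promoter sequences are shown for the gene whose level was alike in both libraries, RHAG, and for genes called high in each direction, GATA1 for K562 and CD96 and CD3D for the library labelled MOLM13. Each runs over the 150 bases before the RefSeq start, read 5′ to 3′ on the gene's strand, from GRCh38.p14. Capitals mark GATAA, the core bound by GATA factors, CCAAT, and CACCC, the core bound by KLF factors, on either strand, and marked letters of neighbouring motifs can overlap. RHAG, chr6:49636840-49636989, minus strand, and GATA1, chrX:48786440-48786589, plus strand, are followed by CD96, chr3:111542047-111542196, plus strand, and CD3D, chr11:118342706-118342855, minus strand.
RHAG: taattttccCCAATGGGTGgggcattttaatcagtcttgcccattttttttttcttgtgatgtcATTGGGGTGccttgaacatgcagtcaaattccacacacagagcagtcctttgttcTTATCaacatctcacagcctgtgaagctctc
GATA1: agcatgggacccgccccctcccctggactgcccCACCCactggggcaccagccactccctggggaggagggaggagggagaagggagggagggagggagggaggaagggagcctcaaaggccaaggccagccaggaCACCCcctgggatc
CD96: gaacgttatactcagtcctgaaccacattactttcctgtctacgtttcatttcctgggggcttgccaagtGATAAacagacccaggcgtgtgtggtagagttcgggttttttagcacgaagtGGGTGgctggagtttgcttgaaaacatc
CD3D: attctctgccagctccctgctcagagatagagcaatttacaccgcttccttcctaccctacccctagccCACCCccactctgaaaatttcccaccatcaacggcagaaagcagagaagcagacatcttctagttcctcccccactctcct

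The RHAG window holds 1 GATAA, 2 CCAAT and 2 CACCC matches, with the CCAAT and CACCC matches side by side in 2 places. GATA1 holds 2 CACCC matches, CD96 holds 1 GATAA and 1 CACCC match, and CD3D holds 1 CACCC match. Of 35116 promoters in the RefSeq table, cut to the same length, 12.2% hold GATAA, 23.5% CCAAT and 39.6% CACCC. A match is a description of the letters and not a bound site.

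Most abundant genes lay close together in the pair, and the called genes were mostly listed at 0 on 1 side. Over 4253 protein-coding genes at a scaled TPM of at least 10 in both, the median difference was -0.07, the median absolute difference 0.42, and the 10th and 90th percentiles -0.94 and 0.73. Pearson's r across these genes, which are not independent replicates, was 0.867. Within 2-fold lay 85.1% of them, or 3619 genes, which is 34.6% of all measured. Of the 10469 genes measured, 606 (5.79%) were high in K562 against 1079 (10.3%) in the library labelled MOLM13, and the median difference was -0.18. Among those calls 457 and 830 were listed at 0 in the other library. Above 0 in both were 8489 genes, of which 149 (1.76%) were high in K562 and 249 (2.93%) in the other. For 26 of the 149 and 37 of the 249, aligned bases not divided by length differed by under 1 on the log2 scale, so those calls rest on which transcript the estimate was assigned to. Against THP-1 and HL60 as well, 196 of the 606 and 223 of the 1079 stood at least 4-fold higher.

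**Figure D1:**
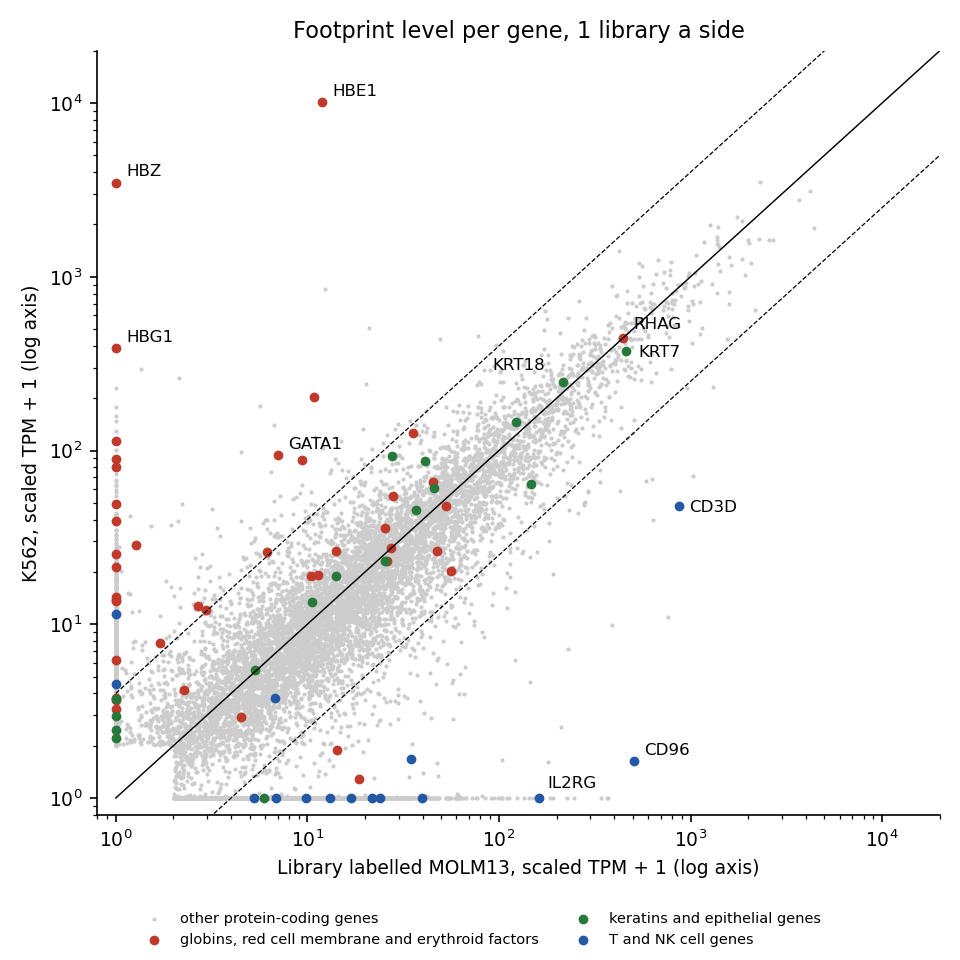
Scaled TPM + 1 of each measured protein-coding gene in K562 (vertical, log axis) against the library labelled MOLM13 (horizontal, log axis), 1 point a gene, with the line of equality solid and 4-fold lines dashed. HBE1 and HBZ stand far above the band, RHAG, KRT18 and KRT7 lie on it, and CD3D, CD96 and IL2RG lie far below, while genes on the axes are listed at 0 in 1 library.

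Globins gave the largest differences on the K562 side. Of 11 globin and chaperone genes 5 were measured, 4 were high in K562 and none in the other library, with a median of 8.61. The other 6, HBA1, HBA2, HBG2, HBM, HBQ1 and AHSP, were listed at 0 in every library. A 0 can be a failed estimate, so the alpha chain genes HBA1 and HBA2 cannot be called absent from K562. HBE1, the embryonic epsilon chain, was at 10163 (10099 to 10227) in K562, 10.9 (8.60 to 13.6) in the other library, and at 0 in both THP-1 and HL60. It was 933-fold (747 to 1182) higher in K562, where it held 0.793% of all coding bases, the most of any gene. In the annotation of the files, build hg38, HBE1 spans chr11:5268345-5505652, minus strand. Both libraries covered all 3 exons of its counted transcript, at a mean coverage of 3003 to 9116 per base in K562 and 1.81 to 9.21 in the other. The zeta chain gene HBZ, also embryonic, was at 3480 and HBG1, a fetal gamma chain, at 388, and HBD, the delta chain, was at 12.9, each listed at 0 in the other 3 libraries. The HBZ value came from 1 covered exon of 3 and is uncertain in its size. HBG1 has the near-identical copy HBG2, so its level is uncertain as well. Exons of HBE1, HBZ, HBG1 and HBD overlap those of another annotated gene, and the counting used no strand option.

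Erythroid transcription factors were mostly higher in K562, though most were present in both. Of 16 measured, 6 were high in K562, 2 in the library labelled MOLM13 and 6 within 2-fold, where 63.2% of all measured genes lay within 2-fold, and the median was 0.89. GATA1, the zinc finger factor required for red cell maturation, was at 93.1 in K562, 6.0 in the other library and at 0 in both THP-1 and HL60, which made it 15.5-fold (12.7 to 19.1) higher in K562. All 6 GATA1 exons were covered in K562 and 4 in the other library. HEMGN, a nuclear regulator of erythroid cells, was at 202 and 9.79, and the other 2 libraries list it at 0. NFE2, a leucine zipper factor acting at the globin enhancer, was at 86.8 and 8.35, with 1.54 in THP-1 and 35.5 in HL60. KLF1, the activator of adult globin, was at 48.0 in K562, listed at 0 in the library labelled MOLM13 and THP-1, and at 0.638 in HL60. LMO2 and KLF3, partners and repressors in the same network, were high in K562 at 25.1 against 5.17 and 11.7 against 1.70. GFI1B, a repressor needed for red cells and platelets, was at 17.9 and 9.48 in the pair and at no more than 0.0212 in THP-1 and HL60. LDB1, the scaffold of the GATA1 complex, was at 64.8 and 44.4 against 8.26 and 15.8. IKZF2, an Ikaros family factor, went the other way at 0.294 and 17.7. MYB, a progenitor factor, was at 19.2 and 55.3, a difference of -1.48.

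Red cell membrane and surface proteins that were called were all on the K562 side. Of 27 listed, 21 were measured, 12 were high in K562, none in the other library and 7 within 2-fold, with a median of 2.20, or 0.48 over the 11 members above 0 in both. GYPB, a sialoglycoprotein of the red cell surface, was at 87.9 in K562 and GYPE, its relative, at 79.4, both listed at 0 in the other 3 libraries. Both have close copies, so their levels are uncertain. KEL, a blood group protease, was at 20.5, DMTN, which bundles actin, at 13.3, and BCAM, the Lutheran laminin receptor, at 12.6, again listed at 0 in the other 3. ANK1, the ankyrin that ties spectrin to the membrane, was at 27.7 and 0.271, and TMOD1, which caps actin at the skeleton, at 24.5 and 0 with 11.1 in THP-1. SPTB, the beta spectrin, was at 5.20 and 0, and ADD2 and ERMAP were high in K562 at 11.1 against 1.96 and 6.83 against 0.706. Alike in the pair were ADD1, an adducin of many tissues, at 47.1 and 51.7, and CD47, the signal that blocks engulfment, at 26.4 and 26.3.

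RHAG, the Rh-associated glycoprotein that conducts ammonia and carries the Rh antigens to the surface, had the same scaled level in both libraries. The equality depends on the scaling, since deposited TPM shifts differences by -0.40 on the log2 scale, toward the library labelled MOLM13. It was at 445.5 (438 to 453) in K562, 444.9 (436 to 454) in the library labelled MOLM13, 3.77 in THP-1 and 1.08 in HL60. The ratio in the pair was 1.00 (0.975 to 1.03), and both libraries covered all 10 exons, with exon means from 5.66 to 419.5 in K562 and from 6.83 to 364 in the other. It stood on 13041 and 9625 footprint equivalents. HBE1 differed 933-fold between the same libraries, so the 2 erythroid genes did not move together. RHAG spans chr6:49605175-49636839, minus strand. RHD, the Rh antigen itself, was at 2.66 in K562 and listed at 0 in the other 3 libraries.

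**Figure D2:**
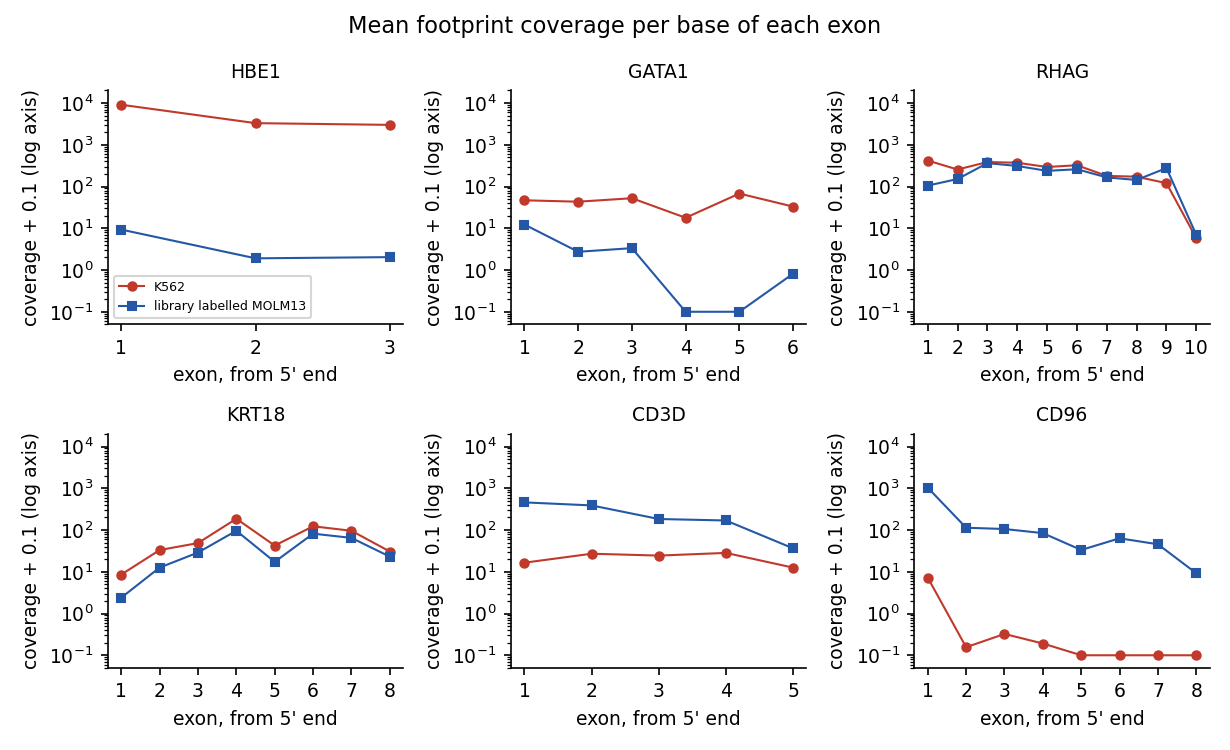
Mean footprint coverage per base + 0.1 (log axis) for each exon of the counted transcript, numbered from the 5′ end, of 6 genes. K562 is drawn as circles and the library labelled MOLM13 as squares, before scaling. RHAG and KRT18 are covered on all 10 and 8 exons in both libraries. RHAG is higher in K562 at exons 1 to 8 (419.5 against 106 at exon 1). It is higher in the other library at exon 9 (120.4 against 277) and exon 10 (5.66 against 6.83). KRT18 (8.47 against 2.29 at exon 1), HBE1 and GATA1 are higher in K562 at every exon. CD3D and CD96 are higher in the other library at every exon.

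Heme and iron genes differed less than the globins. Of 12 heme synthesis genes measured, 1 was high in K562, none in the other library and 6 within 2-fold, with a median of 0.52, and 10 of 12 lay on the K562 side of 0. PPOX, which makes protoporphyrin, was at 40.1 in K562 and 8.69 in the other, 4.62-fold (3.92 to 5.47). UROD, a decarboxylase of the porphyrin ring, was at 311 and 133. FECH, which inserts the iron, was at 38.8 and 9.38 by TPM, a difference of 1.94, and by aligned bases the difference was -0.23. ALAS1, the first enzyme in most cells, was at 44.9 and 40.6, below 99.2 in THP-1 and 248 in HL60. ALAD, a porphobilinogen synthase, was at 0 in K562 against 2.82 in the other. Of 12 iron genes, 1 was high in each direction and 8 were within 2-fold, with a median of 0.24 (-0.15 with deposited TPM). Over all measured genes 5.79% were high in K562 and 10.3% in the other. TFR2, the hepatic and erythroid transferrin receptor, was at 29.8 in K562 and listed at 0 in the other 3, whereas FTL and HMOX1, ferritin light chain and heme oxygenase, were at 137 and 176 and at 76.0 and 89.4. FTH1, the ferritin heavy chain, was at 0 in K562 against 22.9 in the other, and it is made by nearly all cells. Among 15 other erythroid genes 4 were high in K562 and 2 in the other, with a median of 1.23. PKLR, the red cell pyruvate kinase, was at 33.8 in K562 only, and BLVRB, a heme degradation enzyme, at 456 and 76.5. EPOR, the erythropoietin receptor, was at 4.55 and 0, with 3.76 in THP-1 and 5.87 in HL60. CA2, a carbonic anhydrase, was at 185 in the library labelled MOLM13 and had 0 in K562, with 2036 in THP-1 and 31.8 in HL60.

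Of 22 keratin and epithelial genes, 17 were measured, none was high in K562, 1 was high in the library labelled MOLM13 and 9 were within 2-fold, a smaller share than the 63.2% of all measured genes, with a median of 0.35 that is -0.01 with deposited TPM. KRT18, the type I partner of KRT8 in simple epithelia, was at 247 (239 to 255) in K562, 215 (206 to 224) in the other, 14.2 in THP-1 and 14.5 in HL60. Its ratio in the pair was 1.15 (1.09 to 1.21), and both libraries covered all 8 exons. The difference of 0.20 on the log2 scale is smaller than the shift of -0.40 with deposited TPM, so its direction depends on the scaling. KRT8 was at 145 and 122, against 19.2 and 9.57 in THP-1 and HL60. KRT7, a type II keratin of ducts, was at 374 and 459.9, against 67.4 and 32.8, and was covered on all 9 exons in each of the 4 libraries. KRT19, the smallest type I keratin, was at 86.6 and 40.3, a ratio of 2.15 (1.96 to 2.35), against 5.79 and 3.58. KRT18 spans chr12:52948871-52952906, plus strand, and KRT8 lies beside it at chr12:52897187-52949954, minus strand. These 4 keratins lay above both THP-1 and HL60 in each library of the pair. KRT10, an epidermal keratin, was at 60.03 and 45.0 against 46.0 in THP-1, and KRT20, an intestinal keratin, was at 1.45 and 0 against 8.30 in THP-1, so neither showed that order. KRT8 and KRT18 have many processed copies, and KRT7, KRT8 and KRT18 share exon positions with another gene, so their absolute levels are uncertain.

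Junction genes of the list varied. DSP, the desmosomal plaque protein, was at 22.2 and 24.5 in the pair against 2.19 and 1.41, and TJP1, a tight junction scaffold, at 17.9 and 13.1 against 0.983 and 0.776. JUP, plakoglobin, was at 44.4 and 36.0 against 6.28 and 17.4, while the claudins CLDN4 and CLDN7 were at 1.96 and 1.22 in K562 and 0 in the other. CDH1, the epithelial cadherin, was low in the whole series, at 4.49 and 4.30 in the pair and 1.35 and 0.935 in THP-1 and HL60. EPCAM, an adhesion molecule of epithelia, was at 92.4 and 26.6, above 14.5 and 7.87. SPINT1, a protease inhibitor, was at 0 in K562 against 4.96 in the other, and its relative SPINT2 was at 63.5 and 146. Over the 16 members above 0 in K562, the library labelled MOLM13 held a median of 75.8% of the K562 level, THP-1 14.9% and HL60 8.65%. Of 8 fibroblast genes measured, none was called, 7 were within 2-fold and the median was -0.23. SPARC, a collagen-binding matrix protein, was at 10.1 and 20.9. Among 10 other filament and lamin genes, DES, the muscle filament desmin, was at 19.05 in K562 and 0 in the other, and LMNB1, a nuclear lamin, was at 151 and 156.

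**Figure D3:**
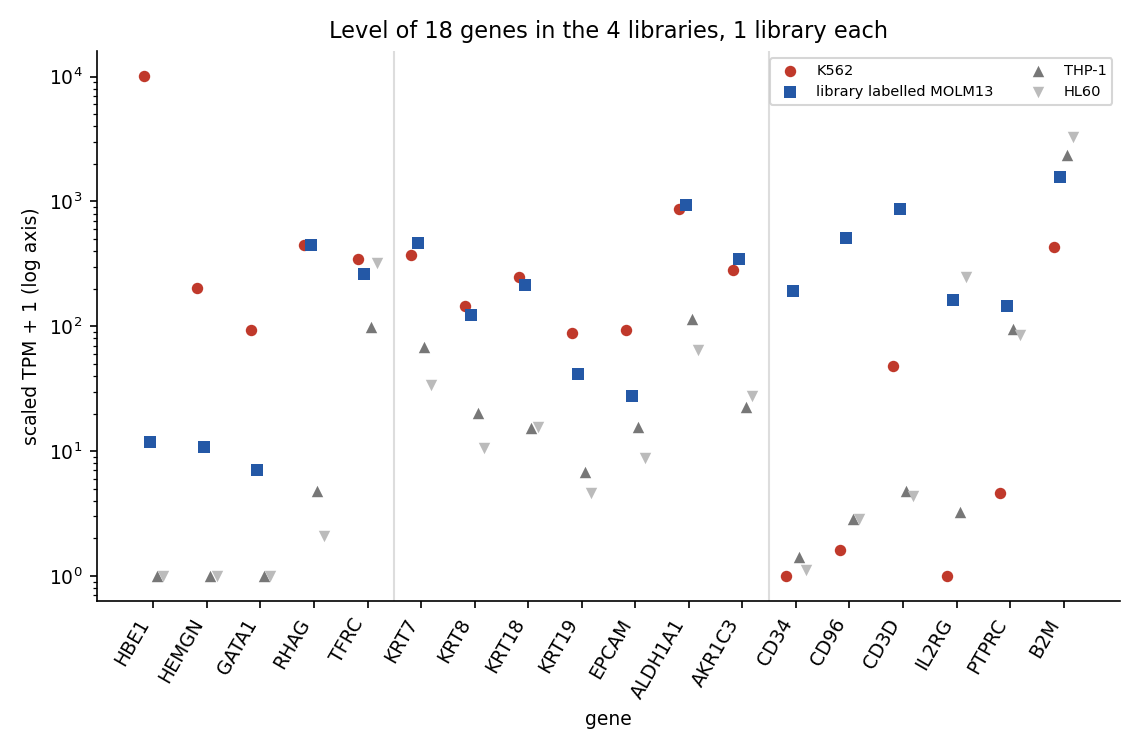
Scaled TPM + 1 (log axis) of 18 genes in the 4 libraries, 1 point a library, with vertical lines between 3 groups. In the middle group, from KRT7 to AKR1C3, both libraries of the pair lie above THP-1 and HL60, on the left HBE1, HEMGN and GATA1 part K562 from the other library while RHAG does not, and on the right the library labelled MOLM13 lies above K562 for all 6 genes.

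The shared level extended to a set of 97 protein-coding genes. These were the 2.68% of the 3619 genes within 2-fold at 10 or more in both whose lower value stood at least 4-fold above THP-1 and HL60, or 0.927% of all measured genes. Their level was used to choose them, so the values describe them only: the library labelled MOLM13 held a median of 103% of the K562 level, THP-1 9.64% and HL60 6.09%. Of the 97, 5 belong to the keratin and epithelial list (KRT7, KRT8, KRT18, DSP and TJP1), 2 to the erythroid, heme or iron lists (RHAG and HMOX1), and 38 share exon positions with another gene. Besides RHAG, the furthest above the background was TFPI, the inhibitor of tissue factor, at 63.8 and 78.5 against 0.938 and 0.671. CSRP2, a LIM protein of smooth muscle, was at 21.7 and 36.4 and LSR, a lipoprotein receptor of tricellular junctions, at 29.3 and 17.7, each at 0 in THP-1 and HL60. TSPAN13, a tetraspanin, was at 73.9 and 93.1. ALDH1A1, a retinaldehyde dehydrogenase, and AKR1C3, a ketosteroid reductase, were chosen after their values were seen. ALDH1A1 was at 864 and 929 against 114 and 63.6, with all 13 exons covered in each library, and AKR1C3 at 282 and 344 against 21.5 and 26.7.

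T and NK cell genes gave the lowest list median, on the side of the library labelled MOLM13. Of 34 listed, 15 were measured, 12 were high in that library and 2 in K562, with a median of -4.08, and 9 of the 15 were listed at 0 in K562. CD96, an adhesion receptor of lymphocytes that also marks leukemic stem cells, was at 506 (495 to 516) against 0.626 (0.451 to 0.846), 808-fold (597 to 1123) higher, with 1.85 in THP-1 and 1.87 in HL60. CD96 spans chr3:111292719-111665750, plus strand. All 8 exons of its counted transcript, which is shorter than the gene, were covered in the library labelled MOLM13. In K562 4 of them were covered, and the first held the highest coverage. Exons outside that transcript were not examined. CD3D, the delta chain of the T cell receptor complex, was at 870.5 (850 to 892) against 47.1 (43.1 to 51.4), 18.5-fold (16.9 to 20.3) higher. In K562 it still lay above 3.82 in THP-1 and 3.35 in HL60 and was covered on all 5 exons. CD3D spans chr11:118339075-118342705, minus strand. CD247, the zeta signalling chain, was at 38.5, and CD7 and CD3E, early T lineage proteins, were at 16.0 and 12.1, all listed at 0 in the other 3 libraries. IL2RG, the shared chain of interleukin receptors, was at 161 and listed at 0 in K562, and HL60 held more of it at 246. Among the killer cell proteins NKG7 was at 22.9 and GZMA at 20.7, both listed at 0 in K562. CD3G and UBASH3A, a suppressor of receptor signalling, were the 2 genes on the K562 side, at 3.51 and 10.5. The 7 T cell markers given above are members of this list, and what part other cells could have in it was not tested.

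Stem and progenitor genes lay mainly on the same side. Of 17 measured, 6 were called for the library labelled MOLM13 and 1 for K562, with a median of -1.55, against 10.3% and 5.79% of all measured genes. The lists overlap: CD96, among the 6, is also a T and NK cell call, and LMO2, the K562 call, is also an erythroid factor call. CD34, the sialomucin used to sort progenitors, was at 189.9 (185 to 195) with all 8 exons covered, and K562 had none of the 8 covered and was listed at 0. ERG, an ETS factor of stem cells and vessels, was at 43.6, and ADGRG1, an adhesion receptor of stem cells, at 14.9, both listed at 0 in the other 3 libraries. GATA2, the progenitor counterpart of GATA1, was at 6.91 in K562 and 19.9 in the other, and MSI2, an RNA-binding stem cell regulator, at 9.64 and 30.1. KIT, the stem cell factor receptor, was at 5.13 and 0.770, a difference of 1.79 that does not pass the rule. Of 12 HOXA genes and cofactors 3 were called for the library labelled MOLM13 and 1 for K562, with a median of -0.93. HOXA9 was 11.5-fold (9.11 to 14.7) higher than the 2.51 of K562, and HOXA7 was at 9.25 against 0. HOXB genes leaned the other way: of 7 measured, 3 were high in K562 and none in the other, with a median of 0.85. HOXB4, which expands stem cells when forced, was at 23.9 against 0, HOXB9 at 17.6 against 2.45 and HOXB7 at 11.95 against 12.2.

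The leukocyte surface and its actin cytoskeleton separated the pair. Of 31 genes for leukocyte actin and adhesion, all measured, 19 were high in the library labelled MOLM13, 1 in K562 and 10 within 2-fold, with a median of -2.60. PTPRC, the phosphatase CD45 carried by nucleated blood cells, was at 145 against 3.66, with all 33 exons covered in the first and 18 in K562, and at 94.6 in THP-1 and 83.6 in HL60. ITGAL, the alpha chain of the integrin LFA-1, was at 102 against 0.662, and its partner ITGB2 at 52.9 against 0. ITGA4, the alpha chain of VLA-4, was at 93.5 against 0, and ITGB1, its beta chain, at 176 against 89.9. GMFG, which debranches actin, was at 365 and TMSB4X, which sequesters it, at 109, both listed at 0 in K562. PFN1, profilin, was at 1047 and 1049, and CAP1 and FLNA differed by 0.11 and -0.16, which are the members of the list closest to 0. CFL1, cofilin, was at 813 and 1595 and TMSB10, a relative of TMSB4X, at 1206 and 2080. CNN2, a calponin, was the 1 gene high in K562, at 40.7 against 0.187. Megakaryocyte genes gave 4 high in the library labelled MOLM13 and none in K562 of 12, with a median of -1.01. ITGA2B, the platelet integrin alpha chain, was at 80.5 against 18.5 and MMRN1, a platelet multimerin, at 46.8 against 0.332, while PF4 and GP9 were listed at 0 in both. The other calls, PLEK at 134 and FLI1 at 21.6 against 0, lay near THP-1 (136 and 25.1) and HL60 (132 and 27.1). On the K562 side of 0 lay 4 of the 12, among them TUBB1 at 3.10 against 0.345.

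**Figure D4:**
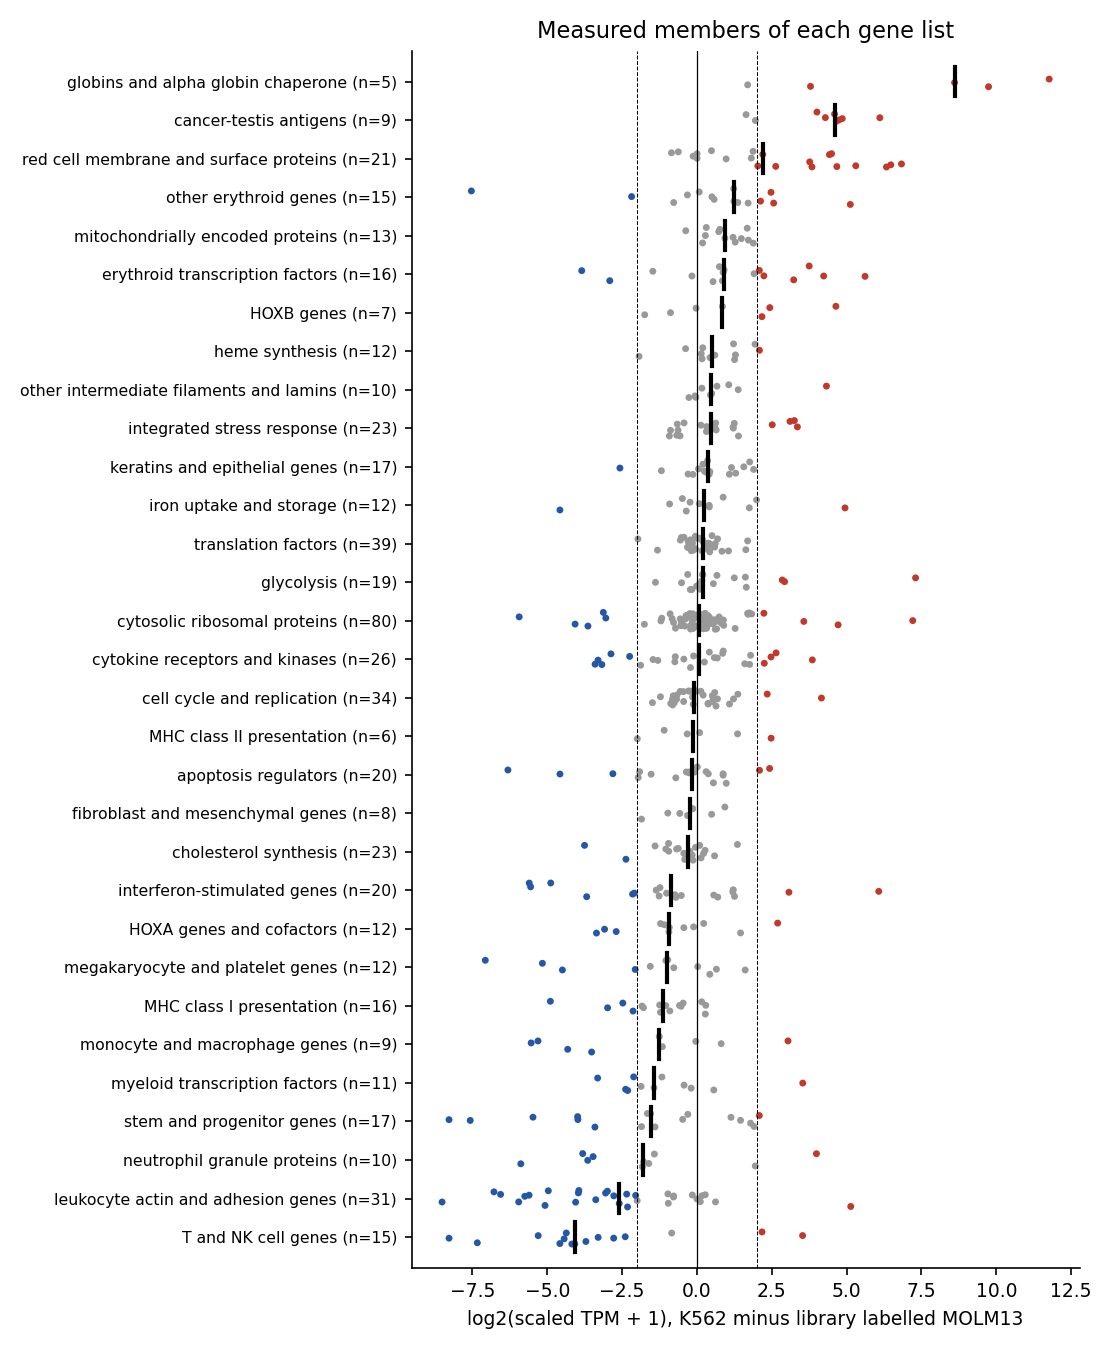
Difference in log2(scaled TPM + 1), K562 minus the library labelled MOLM13, for each measured member of 31 gene lists, 1 point a gene, with the list median as a black bar and calls in red (high in K562) and blue (high in the other). Lists run from globins at 8.61 at the top to T and NK cell genes at -4.08 at the bottom.

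Granule and monocyte genes called were mostly on the side of the library labelled MOLM13, and CYBA, a subunit of the phagocyte oxidase, was at 316 in K562 and 180.2 in the other. SERPINB1, an inhibitor of granule proteases, was at 40.4 and 125. Of 21 neutrophil granule genes listed, 10 were measured and 11 were under 1 in both. Among the 10, 4 were called for the library labelled MOLM13 and 1 for K562, against 10.3% and 5.79% of all measured genes. Listed at 0 in K562 were 7 of the 10. The median was -1.80 and turns to 0.17 over the 2 members above 0 in both. MPO, the granule peroxidase, was at 13.1 against 0, where HL60 held 6321, and CTSG, a granule protease, at 11.6 against 0, where THP-1 held 3497. PRSS57, another granule protease, was at 58.1 against 0 and lay at 1.63 in THP-1. The 5 neutrophil markers were all at 1 or more in the library labelled MOLM13, with a sum of 31.3, and all listed at 0 in K562. MS4A3, a progenitor membrane protein, was the 1 gene on the K562 side at 14.9. Of 30 monocyte genes listed 9 were measured, of which 4 were called for the library labelled MOLM13 and 1 for K562, beside the same shares. Of these 9, 5 were listed at 0 in K562. The list median was -1.26, and -0.04 over the 3 members above 0 in both. AIF1, a calcium-binding protein of macrophages, was at 390.0 against 8.85, LST1 at 45.5 against 0, and FCGR2A, an Fc receptor, at 0 against 7.23 in K562. LYZ, lysozyme, was at 42.0 in K562 and 10.2 in the other, against 2729 in THP-1. Among 11 myeloid transcription factors 4 were called for the library labelled MOLM13 and 1 for K562, again beside these shares. SPI1 and CEBPA, which drive the myeloid program, were at 8.98 against 0 and at 4.10 against 0.0249, and EGR1, an early response factor, at 0 against 10.6 in K562.

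MHC class I and interferon genes leaned to the library labelled MOLM13, and MHC class II genes did not. Of 16 MHC class I pathway genes 4 were high there, none in K562 and 7 within 2-fold, with a median of -1.13. HLA-B, a class I heavy chain, was at 28.4 against 20.3. B2M, the invariant light chain, was at 1557 against 435, a difference of -1.84, and PSMB8, an immunoproteasome subunit, at 46.5 against 0.592. Of 14 class II genes listed 6 were measured, 1 was high in K562 and none in the other, with 3 on each side of 0. Their median was -0.12, and 0.09 over the 3 members above 0 in both. The summed level of the 14 was 25.2 and 22.1 in the pair against 744 in THP-1. Of 20 interferon-stimulated genes 6 were called for the library labelled MOLM13 and 2 for K562, against 10.3% and 5.79% of all measured genes. The list median was -0.88. RSAD2, the antiviral enzyme viperin, was at 47.7, IFI44 at 46.1 and TRIM22, a restriction factor, at 28.6, each listed at 0 in K562. IFI30, a lysosomal reductase, was at 66.3 in K562 and 0 in the other, and IFITM1, which blocks viral entry, at 309 and 134.

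Cytokine signalling had members on both sides. Of 26 receptors and kinases 4 were high in K562, 5 in the library labelled MOLM13 and 11 within 2-fold, with a median of 0.07 that is -0.31 with deposited TPM. The shares over all measured genes were 5.79% high in K562, 10.3% in the other and 63.2% within 2-fold. On the K562 side stood PIM2, a survival kinase induced by STAT5, at 45.0 against 2.18, SOCS2, a STAT5 feedback inhibitor, at 12.4 against 1.82, and BTK at 51.7 against 7.44. On the other side stood SYK at 9.59 and JAK3 at 8.05, kinases next to immune receptors, both listed at 0 in K562. STAT3 was at 48.7 and 56.8. Of 20 apoptosis regulators 2 were high in K562 and 3 in the other, to be read beside the same shares. BCL2, which blocks cell death, was at 0.354 in K562 and 8.50 in the other, PMAIP1, the death promoter NOXA, at 0 and 22.9, and CASP4, an inflammatory caspase, at 0.0221 and 80.5. BCL2L11, the death promoter BIM, was at 4.37 in K562 and 0 in the other, and BAX was at 155 and 125.

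At loci altered in leukemia lines, MTAP, next to CDKN2A and often lost with it, had 0 in K562 against 31.4 in the library labelled MOLM13. CDKN2A itself was at 23.9 and 37.6, and it shares exons with other genes of its locus. NUP214, a pore protein near ABL1 on chromosome 9, was at 101 and 20.8, 4.84-fold (4.61 to 5.09). MYC was at 198 and 168, within 2-fold. Of 23 cancer-testis antigens in the annotation, germline proteins that tumours re-express, 9 were measured and 14 were under 1 in both. Among the 9, 7 were high in K562 and none in the other, against 5.79% and 10.3% of all measured genes. The median was 4.60, and 3.35 over the 4 members above 0 in both. PRAME was at 851 against 11.4, 75-fold (67.6 to 83.3), and MAGEC1 and CTAG2, both X-linked, at 27.9 and 24.2 against 0. Of the 9, 5 were listed at 0 in the library labelled MOLM13.

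Genes with the largest differences outside the lists came from many classes. On the K562 side ACSM3, a mitochondrial acyl-CoA synthetase, was at 292 against 0.350, GTSF1, a germline small RNA factor, at 259.6 against 1.14, and APOE, apolipoprotein E, at 96.9 against 3.49. GTSF1 was also at 360.3 in THP-1, whereas both THP-1 and HL60 list APOE at 0. NMU, the peptide neuromedin U, was at 229, MYL4, an embryonic myosin light chain, at 178, and HEPH, a copper ferroxidase, at 21.6, all listed at 0 in the other library. On the side of the library labelled MOLM13, CRISP3, a secreted granule protein, was at 368 and CTSW, a cathepsin of killer cells, at 342, both listed at 0 in K562. IL32, a cytokine of T and NK cells, was at 758 against 10.1, CYP1B1, a monooxygenase, at 211 against 1.56, and IFI16, a DNA sensor, at 227 against 6.21. PCDH10, a protocadherin, was at 59.6 against 0.0527, and STAB1, a scavenger receptor, at 26.3 against 0.

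Of all measured genes 63.2% lay within 2-fold, and 85.1% of those at 10 or more in both. Cell cycle genes gave 27 of 34 within 2-fold and a median of -0.11 (0.02 by aligned bases), with CDK1 at 217 and 237 and RRM1, a ribonucleotide reductase subunit, at 197 and 202. CCNE1, which drives entry into replication, was at 16.8 in K562 and 0 in the other, and CCND1 was called high in K562 by TPM with a difference of 0.06 by aligned bases. Translation factors gave 34 of 39 within 2-fold and no call, with a median of 0.19 (-0.21 with deposited TPM). Ribosomal proteins gave 63 of 80 within 2-fold and a median of 0.08 (-0.32 with deposited TPM). RPL27 was at 904 and 902, and RPL37 was lower in K562 by 3.13 in TPM and higher by 0.25 in aligned bases. Cholesterol synthesis gave 18 of 23 within 2-fold, and glycolysis 12 of 19, near the share of all measured genes, with a median of 0.19 (-0.21 with deposited TPM). LDHA, lactate dehydrogenase, was at 831 and 839 and SLC2A3, a glucose carrier, at 54.0 and 6.24. Of 23 genes of the integrated stress response, the pathway through ATF4 that answers amino acid lack and unfolded protein, 4 were high in K562, none in the other and 15 within 2-fold, again near that share, with a median of 0.47 (0.07 with deposited TPM). ASNS, asparagine synthetase, was at 103 against 11.1, 9.30-fold (7.75 to 11.3), and TRIB3, CHAC1 and ATF3 were at 9.22, 8.53 and 4.71 against 0, while ATF4 itself was at 30.9 against 49.3.

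Mitochondrially encoded proteins, made by the ribosomes of the mitochondrion, were higher in K562 for 12 of 13 genes, with a median of 0.93 (0.53 with deposited TPM) and no call. MT-ND4, a complex I subunit, was at 946 and 256, and MT-CYB, of complex III, at 3052 and 1601. MT-ND1 was the exception at 568 and 737, and MT-CO1, MT-CO2 and MT-ATP8 differed by 0.31, 0.19 and 0.28, which turn below 0 with deposited TPM. Mitochondrial ribosomes were not separated from cytosolic ones in these libraries.

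Among 187 long non-coding RNA genes measured that share no exon with another gene, 32 (17.1%) were high in K562 against 15 (8.02%) in the library labelled MOLM13. AC079466.1 was at 40.8, LINC01029 at 27.0 and EPS15-AS1 at 19.2 in K562, all listed at 0 in the other, and LINC00958 was at 18.4 against 0.311. On the other side ENSG00000226707, which has no name in the files, was at 119.99 against 0, and AL157895.1 at 123 against 6.38. Shared at a like level were AL049796.1 at 91.3 and 71.7 and AL592295.4 at 94.0 and 70.4. Of 30 long non-coding RNA genes of known name, which can share exons with other genes, 6 were high in K562, none in the other and 16 within 2-fold, with a median of 0.64. PVT1, the neighbour of MYC, was at 45.3 against 1.60, MIR17HG, the host of a microRNA cluster, at 15.2 against 1.21, and UCA1 and CYTOR at 10.8 and 12.7 against 0. MALAT1, a nuclear RNA, was at 293 and 248, within 2-fold.

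Chromosomes differed by their median over genes at 10 or more in both. The lowest were chromosome 8 at -0.58 over 145 genes, chromosome 13 at -0.56 over 57, chromosome 14 at -0.38 over 132 and chromosome 11 at -0.37 over 279. Chromosome 7 was the highest at 0.32 over 178 genes (-0.03 with deposited TPM), against a median of -0.07 over all. Of 7510 windows of 15 neighbouring genes, which overlap, 260 had a median of 1 or more in size. The highest, at 1.99 on chromosome 22 from PI4KA to PRAME (20707691 to 22559361, hg38), held 7 genes high in K562 and none in the other. In it, named after their values were seen, CRKL, an adaptor of ABL1, was at 35.5 and 10.7, and TOP3B, a topoisomerase, at 40.3 and 0. The lowest, at -3.14 on chromosome 12 from CLSTN3 to KLRC4-KLRK1 (7129698 to 10410146), includes lectin genes of the killer cell cluster beside others and held 8 genes high in the library labelled MOLM13 and 1 in K562. There CLEC2B, a lectin ligand, was at 66.5 and KLRF2, a lectin receptor, at 59.3, both listed at 0 in the other 3 libraries. Genome copy number was not measured.

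**Figure D5:**
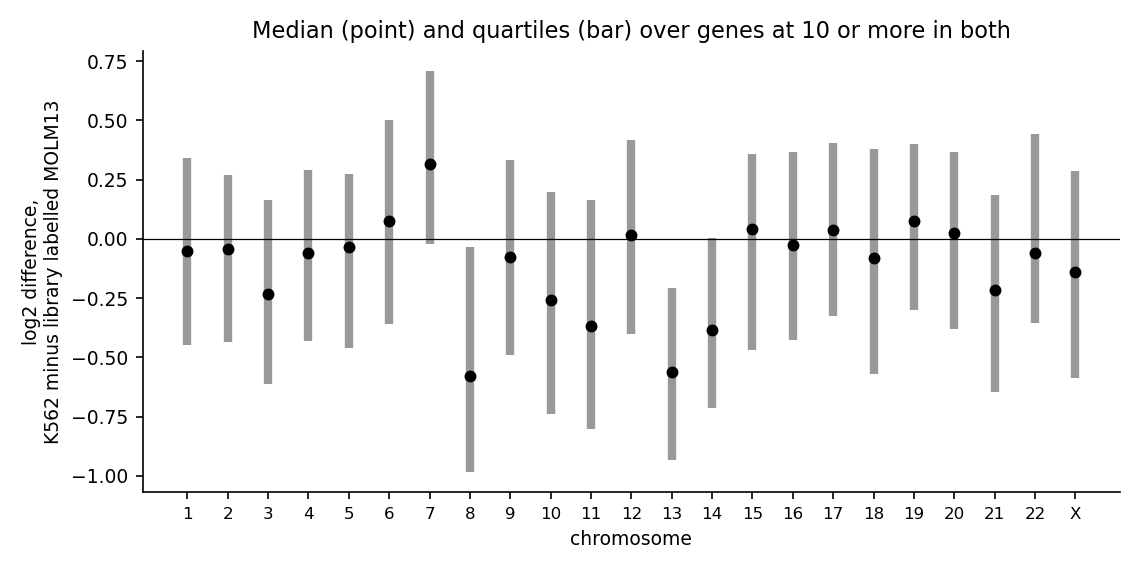
Median (point) and quartiles (bar) of the log2 difference, K562 minus the library labelled MOLM13, over protein-coding genes at a scaled TPM of 10 or more in both, by chromosome. Chromosomes 8 and 13 have the lowest medians, -0.58 and -0.56, and chromosome 7 the highest, 0.32 (-0.03 with deposited TPM).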

How the data were processed

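Ribosome footprint libraries of K562 and of the library labelled MOLM13 were compared, with THP-1 and HL60 as background. Per the submitters' processing notes the authors used StringTie 2.1.5, STAR 2.7.8a, Bowtie2 2.4.2 and Trim Galore 0.6.6, with hg38 as build. Per the file headers StringTie ran against GENCODE release 37, without new transcripts and with no strand option, on read 1 after removal of ribosomal RNA. The deposited values are TPM per transcript and mean coverage per base of transcripts and exons, per the file headers. Read counts were not used here.

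Each gene took the sum of its transcripts' TPM, divided by a median-ratio factor of the pair over genes at a TPM of 10 or more in both (factors 0.871 and 1.15). Aligned bases are coverage times exon length, and division by 29 gives footprint equivalents, so 600 bases are 20.7 with a 95% Poisson interval of 61.7% to 153%. Gene classes came from GENCODE release 29, promoters from RefSeq. Without replicates no test was made, and the scripts were tested on simulated data. The members of the 34 lists and the pair were chosen with earlier results of these data known. Named genes are, in each direction, the 12 with the largest difference above 0 in both and the 12 with the most aligned bases listed at 0 in the other, up to 4 called and 3 closest members of each list, any globin, membrane, keratin, heme and erythroid factor gene, 5 long non-coding genes in each direction and 5 shared, and the 10 shared genes furthest above THP-1 and HL60. Not all of these are printed, and ATF4, B2M, GATA2, GZMA, ITGB1, ITGB2, KIT, MSI2, MT-CYB, MT-ND1, MT-ND4, the label markers and the genes marked in the text were named after their values were seen. Intervals and floors cover counting error only. Alternatives of scaling, length division, pseudocount, size, minimum of bases and genes at 0 were run. Software was Python 3.11.15 with pandas 2.3.3, NumPy 2.4.6, Matplotlib 3.10.9, SciPy 1.17.1 and pyarrow 21.0.0.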

Additional observations from a re-analysis of the deposited data

How the results depend on the processing

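No paired analysis was possible because each line has 1 library and no replicate number. Without scaling, the median of all genes shifts by -0.40 on the log2 scale, and the 606 and 1079 protein-coding calls become 509 and 1292. Counts followed the rule of size. A pseudocount of 0.1 gave 1133 and 1776 protein-coding and 72 and 45 long non-coding genes high in K562 and in the other library, and a pseudocount of 5 gave 172, 328, 5 and 2, with 39 shared genes above THP-1 and HL60 in place of 97. A log2 difference of 1 gave 1432, 2378, 69 and 47, with 253 shared, and one of 3 gave 291, 544, 10 and 9, with 28 shared. Leaving out genes listed at 0 left 149, 249, 5 and 4. Rescaling over nuclear protein-coding genes gave 52 and 32 long non-coding genes and 215 shared genes above THP-1 and HL60. Aligned bases not divided by length gave 25 long non-coding genes high in the library labelled MOLM13, 5931 genes shared at a like level and 237 above THP-1 and HL60, and a minimum of 1500 aligned bases left 19 long non-coding genes high in K562. RPL37 turned to 0.25 by aligned bases. List medians that turned in sign were those of neutrophil granule genes (0.17) and MHC class II genes (0.09) without genes listed at 0, of cell cycle genes (0.02) by aligned bases, and, with deposited TPM, of the iron (-0.15), keratin (-0.01), cytokine receptor (-0.31), translation factor (-0.21), glycolysis (-0.21) and ribosomal protein (-0.32) lists. The cause was not tested. Depth limits genes near 600 aligned bases, and the lack of replicates limits all.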

Other observations

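HPGDS, IL1RL1, HDC and SMAD4 are outside the gene lists and were chosen after their values were seen. HPGDS, the hematopoietic prostaglandin D synthase of mast cells and helper T cells, was at a scaled TPM of 123 and listed at 0 in the other 3 libraries. IL1RL1, the interleukin 33 receptor of mast cells and type 2 lymphocytes, was at 58.8 and also listed at 0 in the others. HDC, the histidine decarboxylase that makes histamine, was at 39.3 against 0.390 in K562, 101-fold (60.3 to 183) higher, with 0.0452 in THP-1 and 0.175 in HL60. SMAD4, the common mediator of TGF-beta signals, was at 53.3 for K562 against 7.77 for the library labelled MOLM13, a log2 difference of 2.63, and differed by -0.24 in aligned bases not divided by length.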
